A study of Mus musculus with 10 samples.

Results

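Interferon-stimulated genes are the genes that a cell switches on when interferon binds its surface receptors. A set of 35 such genes was chosen by name, and 31 of them had a probe set with their symbol on the array. Of these, 29 were bright enough to be tested, among 10734 tested genes of 17097 with a probe set. Isg15, Oas1a, Ifi44 and Bst2 had no probe set under their own symbol and were not analysed here, and Mx1 and Cxcl10 fell under the filter on dim signals, a mean over the 10 arrays above 4.58 on the log2 scale.

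Messenger RNA was measured with Affymetrix MG-430 PM arrays in neutrophils from the blood of 10 male C57BL/6 mice (C57BL/6J in the protocol). The animals were 3 months old, untreated, free of specific pathogens and kept for 9 days in the facility before use. One group holds 5 mice with 1 array each, called mouse 1 to mouse 5. The other group holds 5 portions of the mixed blood of the other 5 mice, divided ahead of the isolation of neutrophils, called pool 1 to pool 5. The spread between the pool portions is therefore the noise of isolation, RNA extraction, amplification and hybridization, and the spread between mice holds that noise plus any difference between animals. The pool is a single mixture, so its arrays are technical replicates. Neutrophils were captured through Ly6G, and the labels give a purity of 71.5% to 99.5% with no value per sample, so other blood cells contribute RNA to some arrays. All values are array signals on the log2 scale, on which 1 unit is a 2-fold difference, and the number of arrays limits their precision.

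Type I interferons act through a receptor whose kinases activate transcription factors, among them Stat2, which joins Irf9 at a short DNA element, the interferon-stimulated response element. Many of the genes switched on in this way sense, bind, cut or block viral nucleic acids, while others, such as Irf7 and Usp18, amplify or restrain the response. Resting cells keep these genes at a low or moderate level through small amounts of interferon made without infection, which is called basal or tonic interferon signalling. Blood neutrophils carry the receptors and respond strongly to interferon.

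Promoters are shown for genes with a letter match to the response element, to show what the match looks like. They are the 6 such genes with the highest SD among mice 1 to 4. Promoter sequence from RefSeq (GRCm38.p6) was at hand for 25 of the 35 genes. The letters GAAA, any 2 bases and GAAA again, searched on both strands in the 250 bases before the annotated start, occurred in 13 of the 25 (52.0%) and in 936 of 27025 genes with a promoter sequence (3.46%). The 12 without it include Ddx58, Irf7 and Isg20, whose SD among mice 1 to 4 exceeded that of Stat2. These are matches of letters, and no binding was measured. The 6 lines below give 60 bases of the gene's strand, 5′ to 3′, all upstream of the annotated gene, with the matches to this pattern or to its reverse complement (TTTC, any 2 bases, TTTC) in capitals. Overlapping matches in Gbp3 form 1 run of capitals. The genes are in order of their SD among mice 1 to 4.
Gbp3, chr3:142559956-142560015, plus strand: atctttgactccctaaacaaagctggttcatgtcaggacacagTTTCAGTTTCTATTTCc
Ifit1, chr19:34640760-34640819, plus strand: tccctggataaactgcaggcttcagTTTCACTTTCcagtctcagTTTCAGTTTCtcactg
Oas3, chr5:120777700-120777759, minus strand: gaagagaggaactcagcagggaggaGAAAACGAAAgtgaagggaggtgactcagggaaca
Rsad2, chr12:26456538-26456597, minus strand: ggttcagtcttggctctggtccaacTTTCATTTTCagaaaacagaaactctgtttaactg
Trim30a, chr7:104465195-104465254, minus strand: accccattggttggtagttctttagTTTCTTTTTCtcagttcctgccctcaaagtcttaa
Stat2, chr10:128270251-128270310, plus strand: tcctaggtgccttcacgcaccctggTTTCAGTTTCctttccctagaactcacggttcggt

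Mouse 5 stood apart on the whole array and has to be named before any spread between mice. Its median signal was 4.74 against 4.50 to 4.59 on the other arrays, its 95th percentile was 7.46 against 8.72 to 9.25 on the other arrays, and its Gapdh control probes at the 3′ end read 7.78 against 11.62 to 12.25. Across all probe sets it correlated at 0.738 to 0.800 with the other arrays, mouse 4 at up to 0.939, and the 8 arrays besides these at 0.949 or more with each other. The difference between 3′ and 5′ Actb control probes, a sign of RNA quality, was 4.57 in mouse 5 and 4.41 in mouse 3, against 1.28 to 2.72 on the remaining arrays. The neutrophil genes S100a8 and S100a9 read 12.67 to 13.29 and 12.28 to 12.80 on the 10 arrays, while Cxcr2, Lcn2 and Itgam read 6.67, 5.36 and 4.28 in mouse 5 and 8.29 or more on the others. B cell markers differed between mice, with 10 of 13 tested and a mean level, relative to the pool mean, of 0.68, 0.71, 1.30, -2.41 and -1.78 in mice 1 to 5 and -0.32 to 0.60 in the pool portions. Markers of plasmacytoid dendritic cells, the main blood producers of type I interferon, stood at 0.19, 0.14, 0.68, -0.64 and -0.30, with 3 of 8 tested. Tcf4, which B cells also express, carried this order, at 8.95 in mouse 3 and 4.04 and 4.33 in mice 4 and 5, while Klk1 and Cox6a2 were highest in mice 4 and 5. The results below are given with and without mouse 5, and without mice 4 and 5 where that changes them. In such bulk samples, fewer cells of a type and less RNA per cell cannot be told apart.

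Basal signal of the interferon-stimulated genes lay near that of the pool in mice 1 to 4 and far below it in mouse 5. Relative to each gene's pool mean, the median of the 29 genes was 0.25, 0.17, 0.23 and -0.16 in mice 1 to 4 and -2.19 in mouse 5. The same median over all tested genes was 0.08, 0.02, 0.01, -0.23 and -0.50. Over the tested genes brighter than the median member, the median in mouse 5 was -2.29. Neutrophil markers, with 12 of 15 tested, stood at -0.78, -0.90, 0.61, -0.45 and -3.11 in mice 1 to 5 and -0.49 to 0.42 in the pool portions. Among them, Camp, Ltf and Ngp were below every portion in mice 1, 2 and 4 and above every portion in mouse 3. S100a8, S100a9, Csf3r and Mmp9 lay within the pool range in mice 1 to 4, and the remaining markers lay inside it or on either side. The part of these markers in the low values of mouse 5 was not tested. All 29 genes read below their pool mean in mouse 5, and 18 of 29 read above it in each of mice 1, 2 and 3. These counts were not made over all tested genes, so they do not set the 29 genes apart.

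**Figure D1:**
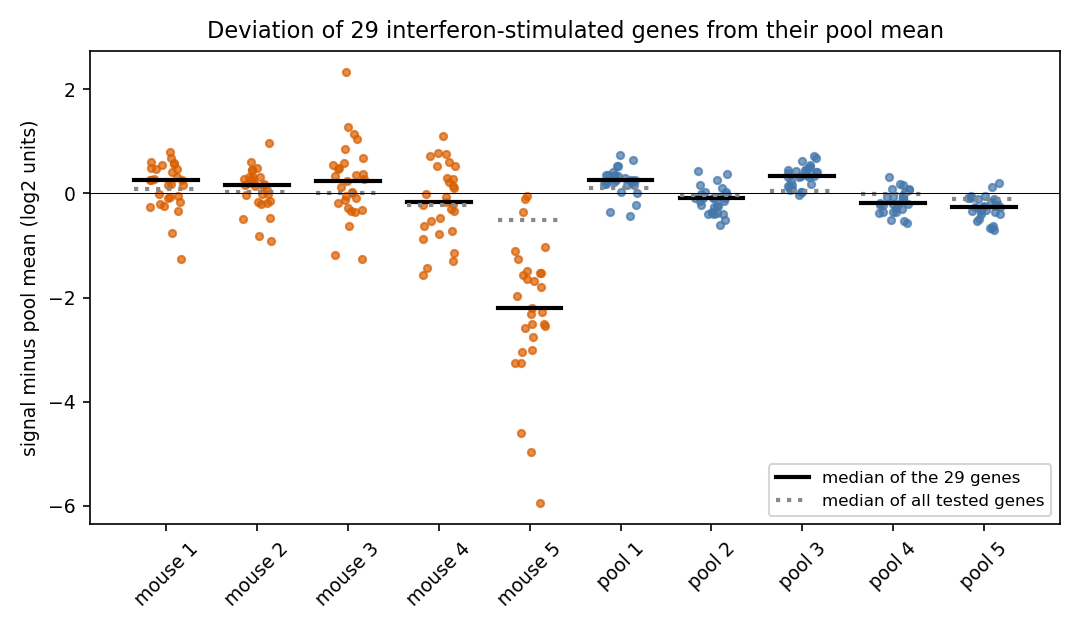
Signal minus the pool mean of the same gene, in log2 units (vertical axis), for each array (horizontal axis). Each point is 1 of the 29 genes, the black line is their median and the dotted line the median of all tested genes. The genes of mouse 5 lie far below 0, with a median of -2.19, while pool 1 and pool 3 lie above 0 and pool 5 below it.

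Mouse 5 read below the lowest pool portion for 26 of 29 genes (57.2% of all tested genes) and above the highest for 0 (28.0%). Mouse 4 read below the pool range for 9 (46.9% of all genes) and above it for 7 (23.0%). Mouse 3 was above the pool range for 11 genes (29.6% of all genes) and below it for 3 (26.0%). Mouse 1 was above for 8 (28.1%) and below for 3 (19.6%), and mouse 2 above for 3 (21.1%) and below for 4 (22.8%). The highest of the 5 mice was mouse 3 for 13 genes (28.7% of all genes), mouse 1 for 9 (19.3%), mouse 4 for 5 (14.5%) and mouse 2 for 2 (9.47%). The lowest was mouse 5 for 26 genes (46.3%), mouse 4 for 2 (25.6%) and mouse 1 for 1 (5.99%), and mouse 3 was lowest for 0 (13.9%). Mice 1 to 3 had at most 4 of the 29 genes below the range of the pool.

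**Figure D2:**
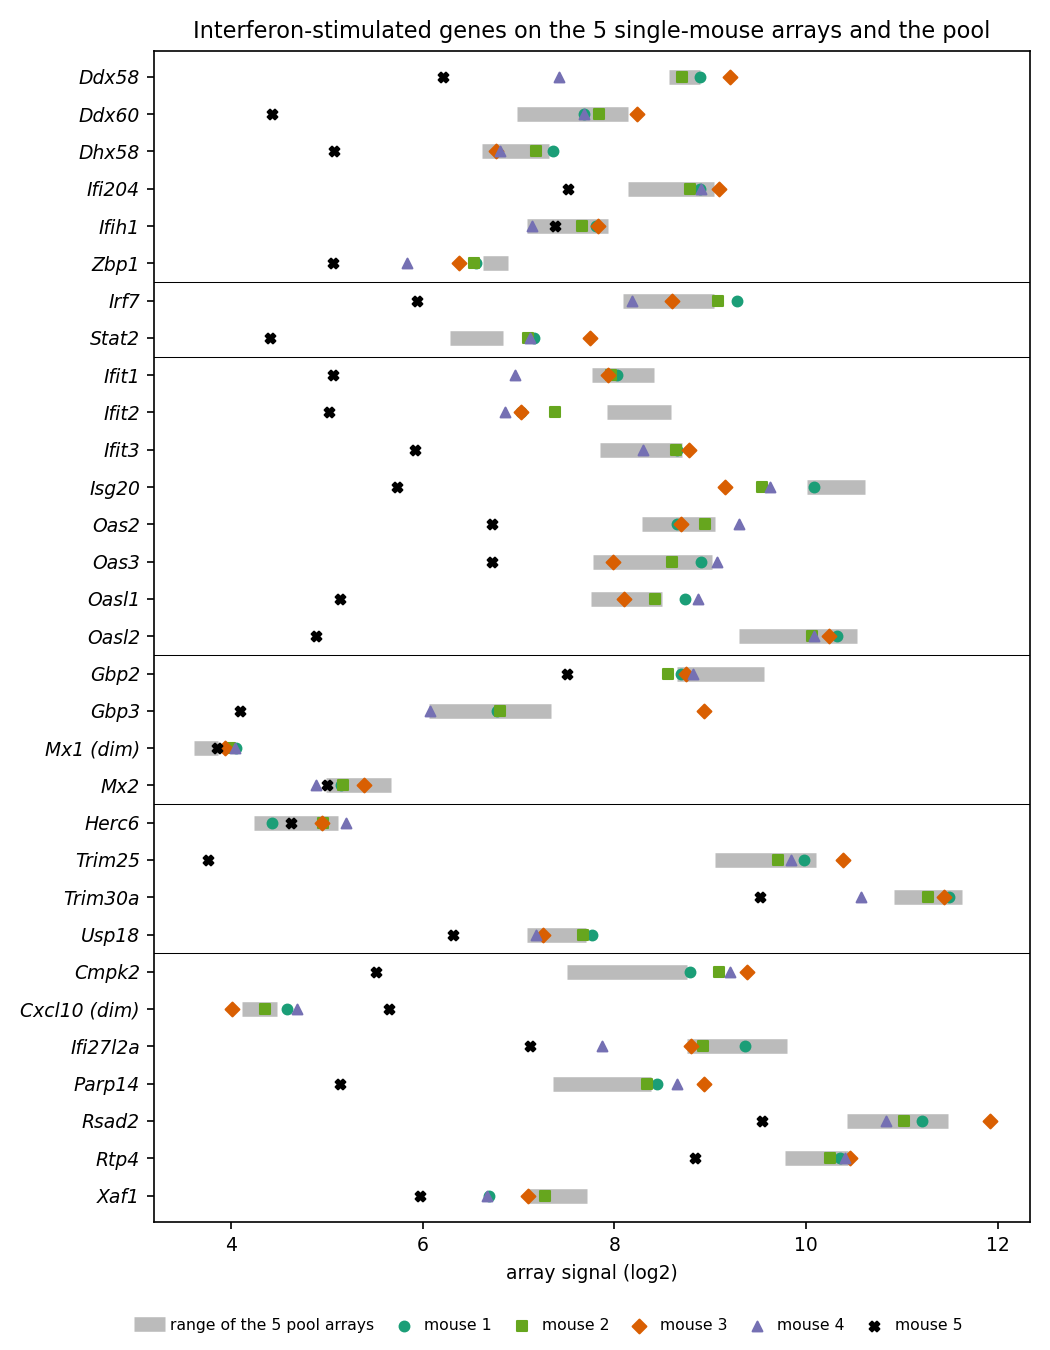
Array signal on the log2 scale (horizontal axis) of the 31 genes with a probe set, grouped by role from sensors at the top to other effectors at the bottom. Grey bars span the 5 pool portions and symbols mark the 5 mice. The crosses of mouse 5 lie left of the grey bar in 26 of the 29 tested genes, and the mouse 3 symbol of Gbp3 lies far to the right.

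Between the 5 mice, 23 of the 29 genes varied more than between portions of the pool in a one-sided ratio of variances moderated with limma (adjusted p under 0.05, n = 5 against 5), where 66.8% of all tested genes did. The exceptions were Mx2, Ifih1, Xaf1, Ifi204, Gbp2 and Herc6. Without mouse 5 the count was 2 (Ddx58 and Gbp3), where 20.3% of all tested genes did. Without mice 4 and 5 it was 0, where 0.708% of all tested genes did. At an unadjusted p under 0.05, 1 member (Gbp3) did so without mice 4 and 5, where 8.93% of all tested genes did. No member varied less between mice at an adjusted p under 0.05 with all 5 mice or without mouse 5 (0% of all genes). At an unadjusted p under 0.05, 0 did so with all mice (0.54% of all genes) and 3 without mouse 5 (Oasl2, Rtp4 and Gbp2, 2.95%).

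**Figure D3:**
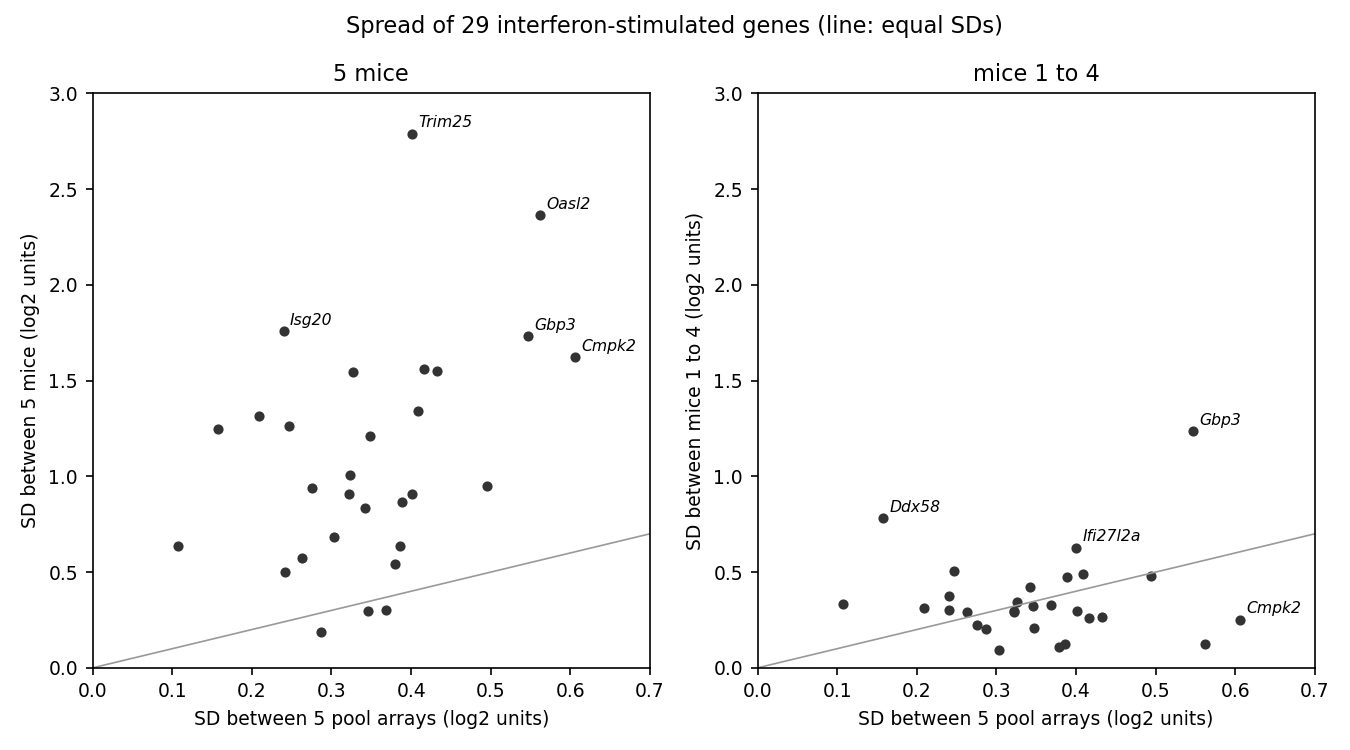
SD between mice (vertical axis, log2 units) against SD between the 5 pool portions (horizontal axis, log2 units) for the 29 genes, with all 5 mice on the left and mice 1 to 4 on the right. The line marks equal SDs. With 5 mice, 26 genes lie above the line, and with mice 1 to 4, 16 lie below it, with Gbp3 and Ddx58 standing out above.

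The median SD of the 29 genes was 0.95 between the 5 mice, 0.30 between mice 1 to 4 and 0.35 between pool portions. Over all tested genes these medians were 0.57, 0.33 and 0.23. For 16 of the 29 genes mice 1 to 4 differed less from each other than the portions of 1 pool did, against 29.1% of all tested genes. The 5 mice spanned more than 2-fold for 26 genes (67.6% of all genes), mice 1 to 4 for 7 (33.3%) and the pool for 9 (12.1%).

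The sensors of viral nucleic acids gave 1 of the 2 members that still passed the variance test without mouse 5. Of all tested genes, 20.3% passed it. Ddx58, which encodes the RNA sensor RIG-I (Entrez gene 230073), read 8.89, 8.70, 9.20, 7.42 and 6.22 in mice 1 to 5 and 8.89, 8.57, 8.89, 8.64 and 8.60 in the pool portions. Mice 4 and 5 were below every pool portion and mouse 3 above every one. The SD was 1.25 between the 5 mice, 0.78 between mice 1 to 4 and 0.16 between pool portions (limma, adjusted p = 0.000439 for n = 5 mice, 0.0340 without mouse 5 and 1.00 without mice 4 and 5). A second probe set of the gene, dimmer, gave the same order of mice 3, 4 and 5, with 6.47, 5.20 and 4.50, and another near the filter read 4.43 to 4.91 in the mice. The B cell marker level was low in mice 4 and 5 as well, at -2.41 and -1.78, and its part in this result was not tested.

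Ifih1, the gene of the related RNA sensor MDA5, read 7.80, 7.67, 7.83, 7.14 and 7.38 in the single animals and 7.74, 7.41, 7.93, 7.26 and 7.08 in the pool. These groups overlapped, mouse 5 included, and the SD of 0.30 between mice did not exceed the 0.35 between portions (limma adjusted p = 0.550, n = 5). After a second quantile normalization it did, with an adjusted p of 0.00587 in limma. Dhx58, which encodes the regulator LGP2, read 6.76 to 7.36 across mice 1 to 4, 5.07 for mouse 5 and 6.62 to 7.32 in the pool. Ddx60, an RNA helicase gene, read 7.68 to 8.24, 4.43 and 6.99 to 8.14. Both lay within or near the pool range except in mouse 5. Ifi204, of a family of DNA-binding interferon-induced proteins, read 8.89, 8.79, 9.09, 8.91 and 7.51 in mice 1 to 5 and 8.95, 8.64, 9.03, 8.33 and 8.14 in the pool, with a low SD of 0.13 in mice 1 to 4. Zbp1, a sensor of nucleic acids in the Z form, read 6.55, 6.54, 6.38, 5.84 and 5.06 in the single animals and 6.63 to 6.89 in the pool, so that all 5 mice were below every portion. In a second, dimmer probe set of Zbp1, mouse 2 lay inside the pool range. Of the 6 sensors, 4 varied more between the 5 mice and 1 without mouse 5 (66.8% and 20.3% of all tested genes).

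The transcription factors that carry the response differed in how they compared with the pool. Irf7, which drives interferon alpha genes, read 9.28, 9.08, 8.60, 8.18 and 5.94 in mice 1 to 5 and 8.75, 8.08, 9.04, 8.13 and 8.43 in the pool. Mice 1 and 2 were above the highest portion, mice 3 and 4 inside the pool range and mouse 5 below it, and the SD was 1.34 with and 0.49 without that mouse (limma adjusted p = 0.00111 and 0.384). Stat2, which binds Irf9 (Entrez gene 20847), read 7.16, 7.09, 7.75, 7.12 and 4.40 in the single animals and 6.83, 6.51, 6.68, 6.69 and 6.29 in the pool. Mice 1 to 4 were all above the highest portion and mouse 5 was below the lowest. The SD of Stat2 was 1.31 between the 5 mice and 0.31 between mice 1 to 4, against 0.21 in the pool (limma adjusted p = 0.000138 and 0.433). In a second, dim probe set of Stat2, mice 1 and 3 were below every portion and mice 4 and 5 above every one.

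Each of the 8 tested genes whose products bind or degrade viral RNA had its lowest value in mouse 5. That low was not particular to this group. Among single animals, mouse 5 ranked at the bottom in 26 of all 29 members, where 46.3% of all tested genes had their minimum there. Oasl2, of the oligoadenylate synthetase family, read 10.32, 10.05, 10.23, 10.08 and 4.89 in mice 1 to 5 and 10.38, 9.46, 10.53, 9.29 and 9.61 in the pool. Mice 1 to 4 spanned 1.20-fold and the portions of a single pool 2.36-fold. The SD was 0.13 in mice 1 to 4 and 0.56 in the pool. Oas3, which makes the oligoadenylates that activate RNase L, read 8.90, 8.60, 7.98, 9.07 and 6.73 in the single animals and 8.54, 7.78, 9.02, 7.94 and 8.19 in the pool, with mouse 4 just above the highest portion and mouse 5 below the lowest. Oas2 and Oasl1 were highest in mouse 4, at 9.30 and 8.87, above the pool maxima of 9.04 and 8.50.

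Among the Ifit genes, whose products bind foreign RNA ends, Ifit1 (Entrez gene 15957) read 8.03, 7.96, 7.93, 6.96 and 5.07 in mice 1 to 5 and 8.41, 8.28, 8.08, 7.76 and 8.03 in the pool. Mice 1 to 3 were close to each other and lay within the pool range, with mice 4 and 5 below it. Ifit2 (Entrez gene 15958) read 7.03, 7.38, 7.03, 6.86 and 5.02 in the single animals and 8.59, 7.92, 8.43, 8.09 and 8.42 in the pool. No mouse reached the lowest portion. Ifit3 read 8.30 to 8.78 across mice 1 to 4, 5.92 for mouse 5 and 7.84 to 8.71 in the pool. The 3 genes of this family did not share a place against the pool. Isg20, an RNA exonuclease gene, read 10.08, 9.54, 9.16, 9.62 and 5.73 in the single animals and 10.61, 10.19, 10.47, 10.44 and 10.01 in the pool, with only mouse 1 reaching the pool range. In this group 8 of 8 genes varied more between the 5 mice and 0 did so in limma without mouse 5 (66.8% and 20.3% of all tested genes). Of the 29 members, 2 (Ddx58 and Gbp3) had an unadjusted p under 0.05 without mouse 5 (33.8% of all genes).

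The GTPases held the largest difference among mice 1 to 4. Gbp3, a guanylate-binding protein that responds to both types of interferon (Entrez gene 55932), read 6.77, 6.81, 8.93, 6.07 and 4.10 in mice 1 to 5 and 7.34, 6.24, 7.01, 6.06 and 6.34 in the pool. Mouse 3 was above every pool portion by more than 1 unit, mice 1, 2 and 4 were inside the pool range, and mouse 5 was below it. Mice 1 to 4 spanned 7.23-fold and the pool 2.42-fold. The SD was 1.73 between the 5 mice, 1.24 without mouse 5 and 0.55 between portions (limma adjusted p = 0.000338 and 0.0121), and without mice 4 and 5 the adjusted p was 0.157. B cell markers were also highest in mouse 3, at 1.30. The neutrophil granule genes Camp, Ltf and Ngp read 11.80, 12.56 and 13.26 in mouse 3, the highest of the 10 arrays, and the Actb difference of that array was 4.41. The part of these in the result was not tested.

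Gbp2, the other guanylate-binding protein gene, did not share the high value of mouse 3. It read 8.69, 8.56, 8.74, 8.82 and 7.51 in mice 1 to 5 and 9.56, 9.02, 9.21, 8.65 and 8.69 in the pool, from a probe set that can match other transcripts. Its SD was 0.11 in mice 1 to 4 and 0.38 in the pool. Mx2 read 4.89 to 5.39 in the single animals and 4.99 to 5.67 in the pool, and the dim Mx1 read 3.86 to 4.06 and 3.62 to 3.86. C57BL/6 mice carry defective forms of both Mx genes. Of the 3 tested GTPase genes, Gbp3 varied more between the mice and Gbp2 and Mx2 did not pass. With probe sets that match several transcripts left out, Gbp2 passed as well, at a log2 variance ratio of 3.92 (limma adjusted p = 0.000971).

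Of the 4 tested genes of the ubiquitin-like ISG15 system and of related ubiquitin ligases, Trim25, Usp18 and Trim30a read below the pool in mouse 5 and Herc6 within it. Trim25, a ligase that modifies RIG-I (Entrez gene 217069), read 9.97, 9.70, 10.39, 9.84 and 3.76 in mice 1 to 5 and 9.92, 9.68, 10.10, 9.77 and 9.05 in the pool. Its SD of 2.79 between the 5 mice was the highest of the 29 genes and became 0.30 without mouse 5, against 0.40 in the pool (limma adjusted p = 7.7e-05 and 0.775). Usp18, which removes ISG15 and dampens the receptor, read 7.76, 7.67, 7.25, 7.18 and 6.32 in the single animals and 7.54, 7.26, 7.70, 7.15 and 7.09 in the pool. It overlapped the pool in every mouse but mice 1 and 5. Trim30a read 11.48, 11.27, 11.44, 10.57 and 9.52 in the single animals and 11.62, 10.94, 11.54, 10.92 and 11.02 in the pool, so mice 4 and 5 were below all portions. A second, dimmer probe set of Trim30a was also below all portions in mouse 5, at 6.56, but was highest in mouse 4, at 10.46. Herc6, the mouse ligase that attaches ISG15, read 4.43, 4.96, 4.95, 5.20 and 4.63 in the single animals and 4.25, 5.11, 4.99, 4.60 and 4.43 in the pool, and the groups overlapped.

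**Figure D4:**
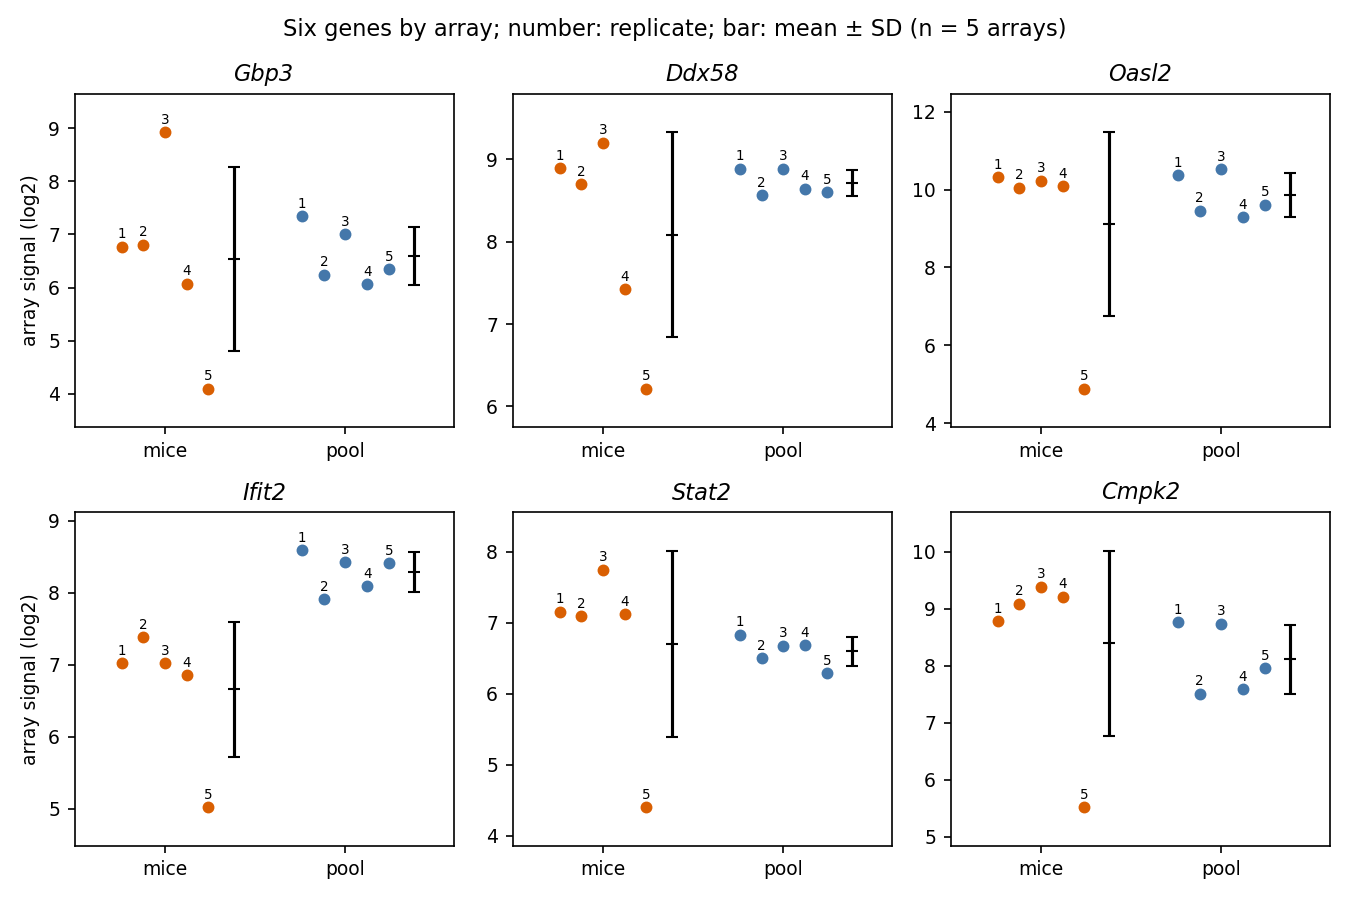
Array signal on the log2 scale (vertical axis) of 6 genes in the 5 mice and the 5 pool portions. Points are single arrays with their replicate number, from the brightest probe set of each gene, and bars give the mean and SD of 5 arrays. Gbp3 is high in mouse 3, Ddx58 is low in mice 4 and 5, and Oasl2 is tight in mice 1 to 4, while Ifit2 lies below and Stat2 and Cmpk2 lie above the pool in mice 1 to 4.

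The remaining effectors followed several patterns. Cmpk2, a mitochondrial nucleotide kinase gene that lies beside Rsad2 in the genome, read 8.79, 9.09, 9.38, 9.21 and 5.52 in mice 1 to 5 and 8.76, 7.51, 8.74, 7.59 and 7.96 in the pool. Mice 1 to 4 were above every portion, by little in mouse 1, but in a second, dimmer probe set mouse 4 was below every portion. Rsad2, which encodes viperin, read 11.21, 11.02, 11.91, 10.83 and 9.53 in the single animals and 11.06, 11.08, 11.47, 11.23 and 10.42 in the pool, with mouse 3 above and mouse 5 below. Ifi27l2a, a small membrane protein gene, read 9.36, 8.93, 8.79, 7.87 and 7.12 in the single animals and 9.45, 9.79, 9.67, 9.46 and 8.76 in the pool. Mice 4 and 5 were below all its portions. Rtp4 had the lowest SD of the 29 genes in mice 1 to 4, at 0.09, with 10.35, 10.24, 10.46, 10.40 and 8.84 in mice 1 to 5 and 10.43, 9.87, 10.41, 10.01 and 9.78 in the pool.

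Parp14, an ADP-ribosyltransferase gene, read 8.34 to 8.94 across mice 1 to 4, 5.13 for mouse 5 and 7.36 to 8.38 in the pool. Xaf1, a partner of an apoptosis inhibitor, read 6.67 to 7.28, 5.97 and 7.09 to 7.72. In a second, dimmer probe set of Parp14, mouse 5 lay inside the pool range, at 6.12. Cxcl10, a chemokine that draws T cells, was dim on every array and was not tested. It read 4.59, 4.36, 4.01, 4.69 and 5.65 in the single animals and 4.42, 4.25, 4.48, 4.12 and 4.17 in the pool, so that here mouse 5 was the highest array. The median signal over all probe sets was highest in mouse 5 too, at 4.74 against 4.50 to 4.59.

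The spread within the pool had a common direction. Pool 1 read above the mean of the 5 portions for 26 of the 29 genes (64.2% of all tested genes) and pool 3 for 28 (57.9%). Pools 2, 4 and 5 did so for 7 (45.2%), 7 (49.1%) and 2 (31.9%). Pool 1 and pool 3 were both above the other portions for 22 genes (31.5% of all tested genes), a count made after the values were seen. Cmpk2 shows it, with 8.76 and 8.74 against 7.51 to 7.96. The median over the 29 genes was 0.26, -0.09, 0.33, -0.18 and -0.26 in pool 1 to pool 5. Neutrophil markers stood at 0.19, -0.05, 0.42, -0.07 and -0.49 in the same portions and monocyte markers at 0.44, -0.20, 0.08, -0.09 and -0.23, and their part in this pattern was not tested.

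No member passed the test of the mean of the individual mice against the pool when all 5 mice were used. With 5 mice, 0 genes were higher and 0 lower (limma, error from the mice alone, 0% of all tested genes in each direction), and at an unadjusted p under 0.05 the counts were 0 (0.354%) and 1 (4.86%). Without mouse 5, again 0 were higher and 0 lower (0.0186% and 1.43% of all genes), with 3 (4.3%) and 2 (8.11%) at an unadjusted p under 0.05. Without mice 4 and 5, Ifit2 was lower (3.28% of all genes) and 0 were higher (1.08%), where 4 members had an unadjusted p under 0.05 (15.5% of all genes).

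Ifit2 had the most negative difference from the pool. It was -1.63 with 5 mice (SE 0.55, limma adjusted p = 0.597), -1.22 without mouse 5 (SE 0.21, adjusted p = 0.0656) and -1.14 without mice 4 and 5 (SE 0.17, adjusted p = 0.0422), and it was lower than every portion in 5 of 5 mice. Isg20 stood at -1.52 with 5 mice (SE 0.93) and -0.75 without mouse 5 (SE 0.25, limma adjusted p = 0.296). Cmpk2 stood at 0.29 with 5 mice (SE 0.86) and 1.01 without mouse 5 (SE 0.22, adjusted p = 0.113), above the pool mean in 4 of 5 mice. Stat2 stood at 0.11 (SE 0.67) and 0.68 (SE 0.23, adjusted p = 0.303), also in 4 of 5 mice. Without mouse 5, 2 of the 29 genes had all of mice 1 to 4 above the pool range (Stat2 and Cmpk2, 2.08% of all tested genes) and 2 had all below it (Ifit2 and Zbp1, 7.99%). These counts rest on the brightest probe set of each gene. The second probe sets of Stat2, Cmpk2 and Zbp1 did not have all of mice 1 to 4 outside the pool range on the same side.

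The rest of the pathway was read from lists of other genes. Interferon genes themselves were dim: 11 of 18 had a probe set and 3 were tested (Ifna2, Ifna7 and Ifna9), and all 11 read between 3.15 and 5.52 on the 10 arrays. Ifnb1 read 4.02 to 5.05 and Ifng 3.30 to 4.44, each highest in mouse 5. Both fell under the filter, and the median signal of the whole array was also highest in mouse 5, at 4.74 against 4.50 to 4.59. Of the 3, only Ifna9 varied more between the 5 mice, at 5.20 in mouse 5 and 4.38 to 4.93 elsewhere in that group, and none did without mouse 5.

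Receptor and signalling genes gave 8 of 11 more variable between the 5 mice and 1 without mouse 5 (66.8% and 20.3% of all tested genes). Ifnar1 and Ifnar2, the receptor chains for type I interferon, read 7.57 to 7.84 and 7.97 to 8.75 among mice 1 to 4, 5.15 and 4.72 for mouse 5, and 6.77 to 7.74 and 8.30 to 8.58 in the pool. The gene that passed without mouse 5 was Ifngr2, a receptor chain for interferon gamma, with 6.36, 7.34, 6.16, 8.26 and 4.26 in mice 1 to 5 and 6.28 to 6.87 in the pool (SD without mouse 5 0.97, limma adjusted p = 0.00684). Here mouse 4 was the highest mouse. Negative regulators gave 4 of 6 and 0 without mouse 5, against the same shares of all genes, and Ptpn6, the phosphatase SHP-1, read 10.58 to 11.70 across mice 1 to 4 and 7.05 for mouse 5.

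Genes of nucleic acid sensing upstream of interferon gave 10 of 12 and, without mouse 5, 2 (66.8% and 20.3% of all tested genes). Ticam1, the adaptor of Tlr3, read 5.96, 5.84, 5.74, 4.65 and 5.13 in mice 1 to 5 and 5.53 to 6.05 in the pool. Ikbke, a kinase that activates Irf3 and Irf7, read 5.69, 5.57, 6.14, 5.07 and 4.48, against 5.50 to 5.67. Both were low in mice 4 and 5.

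Of 35 other tested interferon-stimulated genes, 25 varied more between the 5 mice and 4 without mouse 5 (66.8% and 20.3% of all tested genes). Pml, which builds nuclear bodies, read 7.37, 7.24, 8.25, 3.81 and 4.40 in mice 1 to 5 and 6.13 to 7.28 in the pool, with an SD of 1.96 without mouse 5 (limma adjusted p = 0.000346). Ms4a4c read 8.40, 8.47, 8.75, 5.82 and 7.86 and the pool 7.66 to 8.60. Trim12a read 10.10 to 10.28 across mice 1 to 3, 7.91 in mouse 4 and 5.52 in mouse 5. Ifi203 read 8.88 in mouse 3 and 6.65 in mouse 4. In all 4, mouse 4 was the lowest of mice 1 to 4 (52% of all tested genes) and mouse 3 the highest (35.3%).

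Of 10 tested genes that respond mainly to interferon gamma, 8 varied more between the 5 mice and 3 without mouse 5 (66.8% and 20.3% of all tested genes). Gbp10 read 4.88, 4.66, 5.59, 3.79 and 4.37 in mice 1 to 5 and 4.76 to 4.97 in the pool, with mouse 3 highest as in Gbp3. Ciita, the switch of MHC class II genes, which B cells express, read 6.05, 6.08, 5.69, 3.68 and 4.76, against 5.16 to 5.53. Tgtp1 read 7.05 to 7.40 in mice 1 to 3 and 5.53 and 5.44 in mice 4 and 5. Without mice 4 and 5 none of the genes in these 6 lists varied more between mice, where only 0.708% of all tested genes did. MHC class II and dendritic cell markers stood at -1.72 in mouse 4 and -1.28 in mouse 5, against 0.28 to 0.51 in mice 1 to 3, and their part in these values was not tested.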

How the data were processed

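Values are RMA signals on a log2 scale as the authors deposited them, per the submitters' processing notes. The version of RMA is not given in the sources used here. Of 45141 probe sets, 104 are controls, 551 have several symbols, 15588 have none here and 28898 have 1. The brightest probe set stood for each gene, and a gene was tested if it averaged over 4.58, which is the middle value of the probe sets.

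The variance between mice was divided by the variance between pool portions, one-sided, with limma 3.58.1 under R 4.3.3 and a trend on mean signal for the moderation. Means were compared in limma with the error of the mice alone, the pool counted as a mean of 5 animals. Benjamini-Hochberg adjustment ran over all tested genes at 0.05. Plots used Python 3.11.15.

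The members, lists and rules were chosen with earlier results of these data known. Values on every array are given for the 8 members with the largest and the 4 with the smallest SD over mice 1 to 4, those past the variance test without mouse 5, the 4 largest mean differences in each direction, and Ifit1, Irf7, Usp18, Stat2 and Cxcl10. Zbp1 was added after its values were seen. From the other pathway lists, genes past the test without mouse 5 and the 2 of largest SD were eligible to be named, and Ifnar1, Ifnar2, Ifnb1 and Ifng were added afterwards. Alternatives covered filters, normalization, probe set choice, left-out arrays and other fits. P-values of the variance test set the spread between the arrays of single mice against the spread between pool portions. Those of the main mean test use the spread between the arrays of single mice. In both, that spread includes technical noise and rests on 5 mice, or on fewer where mice were left out.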

Additional observations from a re-analysis of the deposited data

Results flagged for a closer look

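In groups of 5 arrays, 15 of the 29 tested genes had 1 array far from the others by Dixon's criterion (a gap to the nearest array that takes up most of the range), and in all 15 it was mouse 5 with the lowest value. Chance flags about 1 in 20 groups if no array differs as a whole. The mouse 5 array did differ, and it was the lowest mouse for 46.3% of all tested genes. The same flags were not counted over all genes. These values were 5.02 for Ifit2, 5.92 for Ifit3, 5.14 for Oasl1, 4.89 for Oasl2 and 6.72 for Oas2. They were 4.40 for Stat2, 8.84 for Rtp4, 5.07 for Dhx58, 5.52 for Cmpk2 and 4.43 for Ddx60. They were 7.51 for Ifi204, 7.51 for Gbp2, 5.13 for Parp14, 3.76 for Trim25 and 5.73 for Isg20. No pool portion and no other mouse was flagged for any of the 31 genes with a probe set. The nearest mouse read between 6.76 (Dhx58) and 10.24 (Rtp4). The flags rest on the brightest probe set of each gene. Mouse 5 was not the lowest mouse in a second probe set of Parp14 or in the dimmest probe set of Stat2 and of Dhx58.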

How the results depend on the processing

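The spread between mice rests on mouse 5 and on the form of the test. Leaving out 1 array at a time, the count of members that varied more between mice ran from 2 to 24, that of all tested genes from 2176 to 7594, and the members' median SD from 0.30 to 1.08, with the lowest of each without mouse 5. Without mice 4 and 5 these were 0, 76 and 0.29, and 1 member had a lower mean. The unmoderated F ratio called 11 members and 3760 genes, and a test on absolute deviations 0 members and 0 genes, with 0 members and 153 genes at an unadjusted p under 0.05. All-gene counts were 10967 with no filter and 4432 with a filter at the 75th percentile, where more or fewer genes were tested. A 2-group fit with array weights, which counts pool portions as replicates, gave 5 members higher (19.9% of all genes) and 2 lower (16.6%). The motif count was 13 before the start and 15 with the bases after it.

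Signs of log2 variance ratios turned, with the cause not tested, as follows. Leaving out 1 array gave ranges of -3.77 to 2.94 for Rtp4, -3.43 to 1.61 for Gbp2, -3.60 to 5.20 for Oasl2, -3.02 to 2.29 for Ifi204, -1.67 to 4.09 for Cmpk2, -0.23 to 1.12 for Herc6, -1.27 to 0.17 for Ifih1, -0.88 to 3.74 for Ifit2 and -0.67 to 7.21 for Trim25. Without mice 4 and 5 the ratios were -0.46 for Ddx58, -0.64 for Ifi27l2a, -5.16 for Ifit1, -0.15 for Irf7, -3.22 for Trim30a, -3.30 for Rtp4, -3.84 for Gbp2, -3.39 for Oasl2, -2.43 for Ifi204, -1.16 for Cmpk2, -1.12 for Ifit2, -0.23 for Trim25 and -0.14 for Usp18. After a second quantile normalization they were -1.22 for Ifi204 and 3.04 for Ifih1, which then passed (limma adjusted p = 0.00587), while Trim30a (0.0957), Rtp4 (0.338) and Usp18 (0.415) no longer did. Ifih1 stood at 0.11 when arrays were centred and at 0.083 without the trend, and Herc6 at -0.55 unmoderated. Mean differences, mice minus pool, ranged from -0.16 to 0.68 for Stat2, -0.022 to 0.19 for Ifih1 and -1.39 to 0.27 for Trim25 over the left-out arrays, and Trim25 stood at 0.32 without mice 4 and 5 and 0.053 with array weights.

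The median of all genes, mice minus pool, was -0.10 as deposited and -0.00 and -0.12 after the other scalings. Deviations from the group means, in a mouse and the pool portion of the same number, correlated at 0.50, -0.26, 0.33, -0.19 and 0.44 for numbers 1 to 5. The highest correlation of each mouse with another portion was 0.45, 0.49, 0.44, 0.27 and 0.48. Only for number 1 was the portion of the same number the closest. These values cannot decide whether arrays of equal number shared a processing step. The fit with the replicate block gave 0 members higher and 0 lower, and 0 and 188 of all genes.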

Other observations

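Genes with several probe sets did not always agree, and values of some of the dimmer probe sets are given here. A second probe set of Parp14 read 6.12 in mouse 5, inside its pool range of 5.91 to 6.39. Its SD between mice was 0.04 against 1.56 for the one used. Of the dim probe sets of Dhx58, the dimmest had mouse 5 as the highest mouse, at 3.77, and the other as the lowest, at 3.87. The other probe set of Xaf1 was lowest in mouse 5 as well, at 5.08. A second probe set of Gbp2 read 8.27, 8.18, 7.72, 8.34 and 3.98 in mice 1 to 5, an SD of 1.87 against 0.54 for the one used. A second, dim probe set of Stat2 was highest in mouse 5, at 5.10, where the one used was lowest. A second, dim probe set of Rtp4 had an SD of 0.76 over mice 1 to 4 against 0.09. The other probe sets of Rsad2 were lowest in mouse 5 as well, at 5.23 and 5.73. The dimmer of these had mouse 3 inside the pool range, at 6.73, and mouse 4 highest, at 7.32. The brighter had mouse 3 above every portion, at 9.87.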
